A study of Mus musculus with 8 samples.

Results

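The miR-148 family was followed in mouse liver fibrosis. Its members were taken as the 3 miRNAs named mmu-miR-148a, mmu-miR-148b and mmu-miR-152 on the array, out of 567 mouse miRNAs that it carries. Liver RNA of male C57BL/6J mice had been labelled with Cy3 and run on 8 mouse miRNA arrays from Agilent, 1 sample each. The mice were adult and 8 weeks old when dosing began, so mice of later weeks were older. The CCL4 mice had received carbon tetrachloride, a liver toxin, dissolved in olive oil by intraperitoneal injection, and the control mice had received the olive oil vehicle alone by the same route and schedule. Injections were given 2 times weekly up to week 4 and weekly after that, and livers were collected at 4, 6 and 8 weeks. The 5 CCL4 arrays comprised 1 of week 4, 2 of week 6 and 2 of week 8, and each week had 1 control array, 3 in all. The sources used here do not state whether an array carried RNA of a single mouse or of several, so n counts arrays and p-values measure the spread between arrays. The question was whether the expression level of the family differed between CCL4 and control mice, and whether its members, which share a seed, changed alike.

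A miRNA guides the silencing complex to messenger RNAs mainly through its seed, the bases from position 2 to position 8, so miRNAs with the same seed can bind the same sites. The family is known for repressing the DNA methyltransferases DNMT1 and DNMT3B. Its member miR-148a is abundant in hepatocytes, where it is also known for repressing the LDL receptor and the cholesterol exporter ABCA1. Its other two members are expressed in many tissues, and their genes lie with genes of the coatomer zeta subunits, which act in vesicle transport.

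The mature sequences are shown because the comparison of the members turns on them. They are from RefSeq (mouse assembly GRCm38.p6), written 5′ to 3′, with the seed in capitals, and all 3 members had an entry there.
mmu-miR-148a: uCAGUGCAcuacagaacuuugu
mmu-miR-148b: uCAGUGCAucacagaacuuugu
mmu-miR-152: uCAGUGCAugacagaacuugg
Of 1738 mature mouse sequences in that table, only these 3 carried the seed. Counted from 1 at the 5′ end, miR-148b differed from miR-148a by C9U and U10C, 2 of 22 bases. Over the 21 bases of miR-152, miR-152 differed from miR-148a by C9U, U10G and U20G, and from miR-148b by C10G and U20G. All of these differences lie outside the seed.

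The mature miR-148a lies at chr6:51269829-51269850 on the minus strand, within the span of the predicted gene Gm38821. The mature miR-148b lies at chr15:103285185-103285206 on the plus strand, within the span of Copz1. The mature miR-152 lies at chr11:96850439-96850459 on the plus strand, within the span of Copz2, and its hairpin begins 517 bases after the start of that gene. The table gives gene spans only, so exons and introns were not read from it.

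Each member was read by 2 probes of 10 spots each, and the array software summed them to a total signal. The array annotation gives the probes on build mm9, whose coordinates are not those of the assembly above. The miR-148a probes are placed there at chr6:51219828-51219846 and chr6:51219828-51219847, the miR-148b probes at chr15:103115620-103115637 and chr15:103115619-103115637, and the miR-152 probes at chr11:96711758-96711773 and chr11:96711757-96711773. Binding of a member to the probes of another member was not measured here. Signals of different miRNAs come from different probes, so only changes between arrays are compared between members, not their brightness.

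The 8 arrays shared 1 slide and 1 scan. Between 117 and 158 miRNAs per array were called detected by the software, 113 on all 8 arrays, and 133 were detected on at least 3 arrays and tested. The CCL4 array of 4 weeks called the most, and its lowest detected signal was 0.139, against 5.59 to 8.16 on the other arrays. Signals were brighter on the CCL4 arrays as a whole: the median signal of the miRNAs detected on all arrays was 80.7 to 162 on CCL4 arrays and 65.9 to 90.4 on control arrays. To compare arrays, the signals of an array were divided by their 75th percentile over its 567 mouse miRNAs, which gave the scaled signal. That percentile was 6.53 to 11.0 on CCL4 arrays and 4.71 to 6.48 on control arrays, so the direction of a change depends on this step. The median log2 change of the 113 miRNAs, CCL4 over control, was -0.36 in scaled signal and 0.31 without scaling. All 3 members were detected on all 8 arrays, and no spot was saturated.

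The expression level of miR-148a relative to the array was lower in CCL4 mice than in control mice, with no overlap, whereas its unscaled signal was not (log2 fold change 0.087). Its scaled signal was 90.1 in CCL4 mice at 4 weeks, 116 and 149 at 6 weeks, and 135 and 158 at 8 weeks. In control mice it was 185, 191 and 178 at 4, 6 and 8 weeks. Every CCL4 array thus lay below every control array, and the CCL4 array of 4 weeks was the lowest. The mean log2 scaled signal was 6.99 ± 0.33 (SD, n = 5) for CCL4 against 7.53 ± 0.053 (SD, n = 3) for control. With week as a factor, the log2 fold change was -0.58 (SE 0.178, 95% interval -0.98 to -0.19), 0.668-fold, with an adjusted p of 0.0232 by limma. An exact permutation test over all 56 splits of the arrays, two-sided, gave p = 0.0357, which is the lowest value possible.

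The level of miR-148b relative to the array was also lower in CCL4 mice, and its unscaled signal was not (log2 fold change 0.17). Its scaled signal was 2.04 in CCL4 mice at 4 weeks, 2.40 and 2.89 at 6 weeks, and 3.06 and 3.12 at 8 weeks. In control mice it was 3.42, 4.02 and 3.58 at these weeks. Here too every CCL4 array lay below every control array. The mean log2 scaled signal was 1.42 ± 0.26 (SD, n = 5) against 1.87 ± 0.12 (SD, n = 3). The log2 fold change was -0.50 (SE 0.159, 95% interval -0.85 to -0.15), 0.706-fold, with an adjusted p of 0.0249 by limma, and the exact permutation test gave p = 0.0357.

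For miR-152 the groups overlapped. Its scaled signal was 4.37 in CCL4 mice at 4 weeks, 5.14 and 6.80 at 6 weeks, and 6.78 and 7.21 at 8 weeks. In control mice it was 7.38, 7.84 and 7.12. The second CCL4 array of 8 weeks lay above the control array of that week, and the other 4 CCL4 arrays lay below every control array. The mean log2 scaled signal was 2.57 ± 0.31 (SD, n = 5) against 2.90 ± 0.070 (SD, n = 3). The log2 fold change of -0.36 (SE 0.176, 95% interval -0.75 to 0.025), 0.777-fold, did not pass the threshold of 0.05, with an adjusted p of 0.101 by limma and p = 0.0714 by the exact permutation test.

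**Figure D1:**
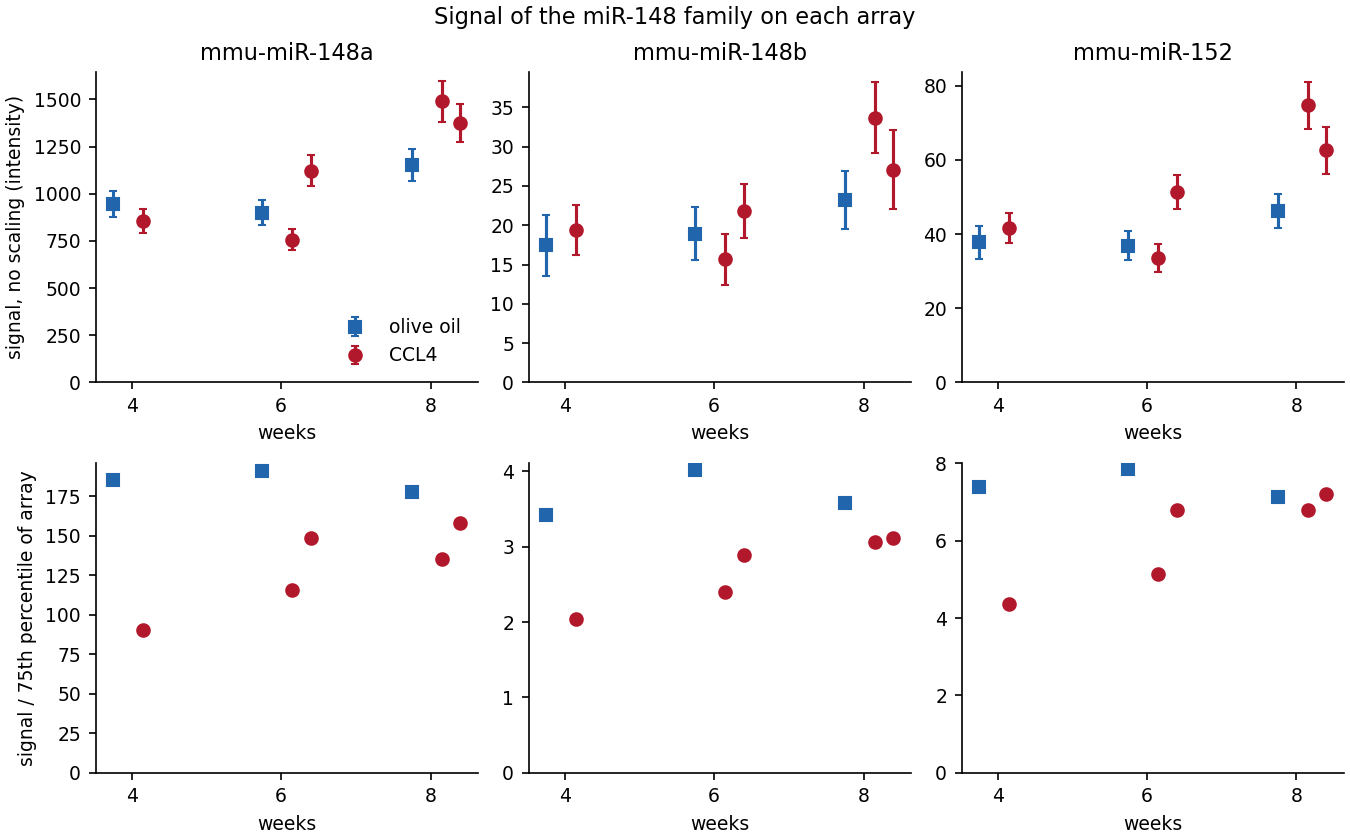
Signal of each member on each array against weeks, without scaling in the upper panels (bars are the error that the array software gives for the signal) and divided by the 75th percentile of the array in the lower panels. In scaled signal the 5 CCL4 arrays of miR-148a and miR-148b lie below the 3 control arrays; without scaling the groups of all 3 members overlap, and the CCL4 arrays of 8 weeks are the highest.

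Thus 2 of 3 members passed as lower in scaled signal and 0 as higher, where 35.3% of the 133 miRNAs tested were lower and 13.5% higher, and 2 of 3 had groups that did not overlap, where 52.6% of the 133 did in either direction. Ranked from the lowest log2 fold change, miR-148a stood at 25, miR-148b at 43 and miR-152 at 60 of 133. The median of the 133 was -0.32. Relative to that median the members changed by -0.26, -0.18 and -0.042, in the order miR-148a, miR-148b, miR-152, and these differences are the same without scaling.

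Without scaling none of the members was lower over all weeks. The signal of miR-148a itself was 856 in CCL4 mice at 4 weeks, 756 and 1122 at 6 weeks, and 1489 and 1375 at 8 weeks, against 946, 900 and 1153 in control mice. That of miR-148b was 19.4, then 15.7 and 21.8, then 33.7 and 27.1 in CCL4 mice, against 17.5, 18.9 and 23.2. That of miR-152 was 41.5, then 33.5 and 51.4, then 74.7 and 62.6 in CCL4 mice, against 37.7, 36.9 and 46.1. The log2 fold change of the unscaled signal was 0.087 for miR-148a, 0.17 for miR-148b and 0.31 for miR-152, with adjusted p of 0.811, 0.629 and 0.324 by limma. In that comparison 34 of 133 miRNAs were higher (25.6%) and 0 lower (0%), with 51 at an unadjusted p under 0.05. The fall of miR-148a and miR-148b is therefore a fall relative to the 75th percentile of the same array. On the control arrays of 4, 6 and 8 weeks that percentile was 5.11, 4.71 and 6.48. It lay below the lowest detected signal there, 7.12, 6.26 and 7.80, but above it on every CCL4 array. Part of the fall is thus measured against a signal too low to be called detected on control arrays.

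The choice among scalings mattered as well. With the 75th percentile of only the 113 miRNAs that all arrays detected, 21 miRNAs were higher and 10 lower, against 18 and 47, and miR-148a and miR-148b changed by -0.38 and -0.30, with adjusted p of 0.0778 and 0.0785 by limma. With quantile normalization 12 were higher and 18 lower, and the values were -0.064 for miR-148a, -0.59 for miR-148b and -0.19 for miR-152.

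**Figure D2:**
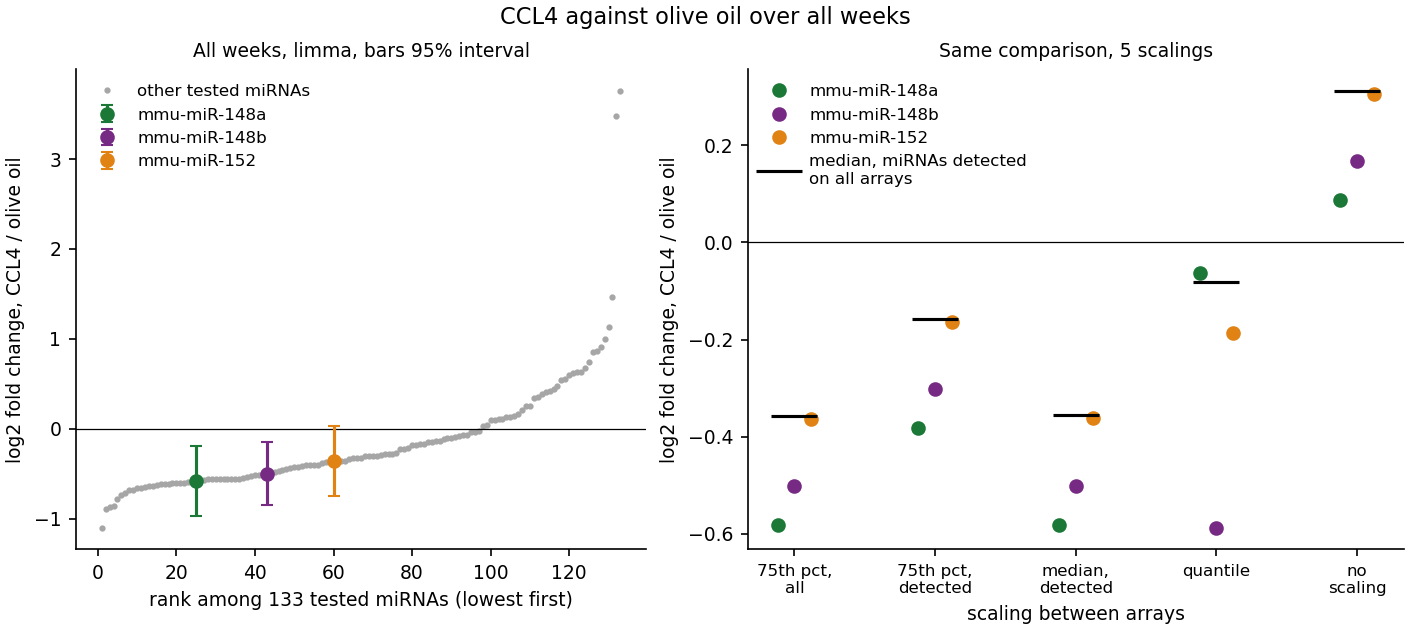
Left, log2 fold change of CCL4 over control in scaled signal for 133 miRNAs in rank order (family members in colour with 95% intervals). Right, the change of each member under 5 scalings of the arrays, with the median of the 113 miRNAs detected on all arrays as a black bar: all 3 members are below 0 with each scaling, from -0.58 to -0.064 for miR-148a, and above 0 without scaling.

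The error of the total signal that the software gives was 7.39 to 7.44% of the signal for miR-148a, 13.3 to 22.1% for miR-148b and 8.55 to 11.8% for miR-152. The CCL4 arrays of the same week differed by 0.36 log2 units at 6 weeks and 0.23 at 8 weeks for miR-148a. They differed by 0.27 and 0.026 for miR-148b, and by 0.41 and 0.088 for miR-152. The change over all weeks in scaled signal was larger than these gaps for miR-148a and miR-148b, and smaller than the gap of 6 weeks for miR-152.

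The calls also rested on single arrays. Without the CCL4 array of 4 weeks, miR-148a changed by -0.41 and miR-148b by -0.41, both with an adjusted p of 0.147 by limma, and miR-152 by -0.22. Leaving out the control array of 4 weeks gives the same values, since week 4 then has 1 array. Without the control array of 6 weeks the adjusted p was 0.0915 for miR-148a (log2 fold change -0.61) and 0.165 for miR-148b (-0.44), by limma. Without the first CCL4 array of 6 weeks that of miR-148a was 0.0556. Without the control array of 8 weeks miR-152 passed, at -0.56 with an adjusted p of 0.0415 by limma. The number of lower miRNAs among all 133 was 7 without either array of 4 weeks, 5 without the control array of 6 weeks, 30 without the first CCL4 array of 6 weeks, and 41 to 60 without any of the others.

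Taken week by week, the difference from control mice was widest at 4 weeks for each member, in scaled signal. The weekly comparisons used a mean per group and took the spread from the CCL4 pairs of 6 and 8 weeks, so a lone array is assumed to vary like those pairs. In this fit limma gave every tested miRNA the same spread. The SE within a week is therefore equal for all members, and neither it nor the p-value measures a member's own spread. At 4 weeks the log2 fold change was -1.04 for miR-148a, 0.487-fold, with an adjusted p of 0.00715 by limma (SE 0.328). That of miR-152 was -0.76, 0.592-fold, with an adjusted p of 0.0487, and that of miR-148b was -0.74, 0.598-fold, with an adjusted p of 0.0512. So 2 of 3 members were lower at this week, where 33.1% of all tested miRNAs were. The 4-week values without scaling were -0.14, 0.15 and 0.14 for miR-148a, miR-148b and miR-152. Leaving out a CCL4 array of 6 or 8 weeks left the 4-week estimates unchanged. The calls of miR-148b and miR-152 at 4 weeks depended on which array was left out, since the spread then came from the remaining pair alone.

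At 6 weeks none of the 3 members passed, where 3.01% of the miRNAs were called lower. The log2 fold changes were -0.54 for miR-148a, -0.61 for miR-148b and -0.41 for miR-152 (SE 0.284), with adjusted p of 0.155, 0.126 and 0.236 by limma. Without scaling they were 0.034, -0.033 and 0.17. Before adjustment limma passed miR-148b alone of the members at this week, where 45 of 133 miRNAs had an unadjusted p under 0.05 in either direction. Without the second CCL4 array of 6 weeks, miR-148a changed by -0.72, miR-148b by -0.74 and miR-152 by -0.61. That week then had a lone array in each group, so only the sizes are given.

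At 8 weeks the scaled signals of the CCL4 arrays were nearest to the control array. The log2 fold changes were -0.28, -0.21 and -0.026 for miR-148a, miR-148b and miR-152, with adjusted p of 0.741, 0.779 and 0.964 by limma, and none had an unadjusted p under 0.05. Without scaling they were 0.31, 0.38 and 0.57. At this week 0.752% of the tested miRNAs were called lower. The 95% intervals reached from -0.84 to 0.28 for miR-148a, from -0.77 to 0.35 for miR-148b and from -0.59 to 0.53 for miR-152.

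The narrowing from 4 to 8 weeks did not pass a test for any member. Most groups had 1 array, so this test could miss a real narrowing. The interaction between treatment and week, tested by limma, gave an adjusted p of 0.657 for miR-148a, 0.806 for miR-148b and 0.684 for miR-152, where 6.02% of all tested miRNAs passed. Between CCL4 mice at 8 and at 6 weeks, the only weeks with 2 arrays each, the log2 change was 0.16 for miR-148a, 0.23 for miR-148b and 0.24 for miR-152 (SE 0.232). None of them passed, with adjusted p of 0.721, 0.599 and 0.583 by limma and no unadjusted p under 0.05, where 3.76% of miRNAs were called higher.

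Whether the members changed alike can be asked without any scaling, since dividing an array by 1 number leaves the ratio of its signals unchanged. Quantile normalization does not leave the ratio unchanged, and the ratios were not fitted under it. Over all weeks it gave -0.064 for miR-148a, -0.59 for miR-148b and -0.19 for miR-152, so miR-148a then fell least. The signal of miR-152 was 4.85% of that of miR-148a in CCL4 mice at 4 weeks, 4.43 and 4.58% at 6 weeks, and 5.01 and 4.55% at 8 weeks. In control mice it was 3.99, 4.10 and 4.00%. The percentages depend on the probes and are not ratios of molecules, but the 5 CCL4 arrays all lay above the 3 control arrays. The ratio was 1.16-fold higher in CCL4 mice (log2 change 0.22, SE 0.0837, 95% interval 0.016 to 0.42), and the change was 0.28, 0.14 and 0.26 at 4, 6 and 8 weeks.

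Over the 132 ratios to miR-148a, limma gave this ratio an unadjusted p of 0.0386 and an adjusted p of 0.116, so it did not pass. Among these ratios 22% were called higher and 0% lower, and 34.8% had groups that did not overlap. The exact permutation test over 56 splits, two-sided, gave p = 0.0357, the lowest possible. The exact permutation test within weeks gave p = 0.111, also the lowest of its 18 splits. Leaving out each array in turn, the log2 change stayed between 0.19 and 0.27, with adjusted p from 0.132 to 0.294 by limma. It was smaller with another background correction (normexp, offset 50), at 0.092 with an adjusted p of 0.845 by limma.

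The ratio of miR-148b to miR-148a showed no such separation. The signal of miR-148a was 44.1 to 51.5 times that of miR-148b on CCL4 arrays and 47.6 to 54.2 times on control arrays. The log2 change of miR-148b over miR-148a was 0.081 (SE 0.104), with a 95% interval of the fold from 0.887 to 1.26 and an adjusted p of 0.614 by limma (exact permutation p = 0.357).

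The ratio of miR-152 to miR-148b lay between. The signal of miR-152 was 214% of that of miR-148b in CCL4 mice at 4 weeks, 214 and 236% at 6 weeks, and 221 and 231% at 8 weeks, against 216, 195 and 199% in control mice. The control array of 4 weeks lay among the CCL4 arrays. The log2 change was 0.14 (SE 0.0728), with a 95% interval of the fold from 0.972 to 1.25 and an adjusted p of 0.200 by limma (exact permutation p = 0.107). Among the 132 ratios to miR-148b, 28% were called higher and 1.52% lower. Of the 3 pairs compared, none passed by limma.

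**Figure D3:**
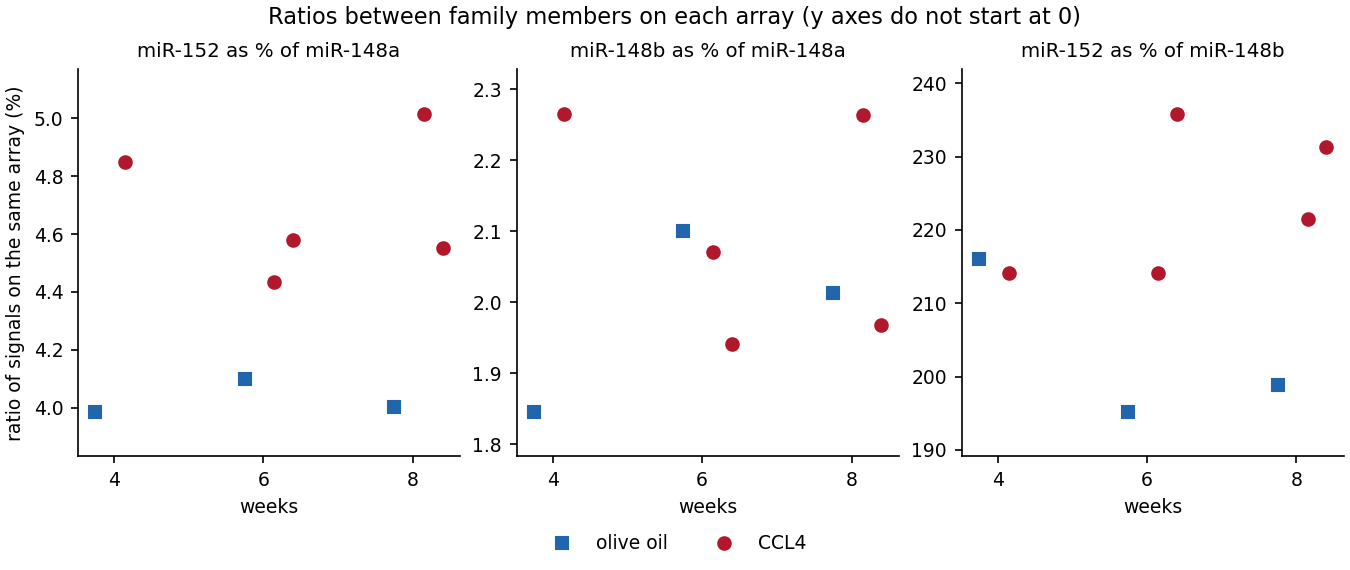
Ratio of the signals of family members on the same array, in percent, against weeks (axes do not start at 0). The 5 CCL4 arrays of miR-152 over miR-148a, 4.43 to 5.01%, lie above the 3 control arrays, 3.99 to 4.10%; the groups overlap in the other panels.

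The probes of a member share the same RNA and are not replicates, but they read it separately. Of the summed signal of miR-148a, 33.9 to 35.2% came from the probe annotated over 19 bases and the rest from that over 20 bases, and both changed by -0.58 log2 units in scaled signal (adjusted p 0.0470 and 0.0516 by limma over 277 probes). The miR-152 probes, annotated over 16 and 17 bases, changed by -0.35 and -0.37 (adjusted p 0.149 and 0.120 by limma). Of miR-148b, 89.3 to 98.5% came from the probe over 19 bases, which changed by -0.48 (adjusted p 0.0516 by limma), while the probe over 18 bases stayed between 0.260 and 3.38 in signal and changed by -0.50 with an SE of 0.638.

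In all 4 pairs of a miR-148a probe with a miR-152 probe, the groups did not overlap, as in the ratio of the total signals. The 4 pairs read the same miRNAs and are not independent. Among all ratios of total signals to miR-148a, 34.8% did not overlap. The signal of the 19-base miR-148a probe was 19.4 to 21.6 times that of the 16-base miR-152 probe on CCL4 arrays and 23.8 to 24.3 times on control arrays. Against the 17-base miR-152 probe it was 10.8 to 12.4 times and 13.1 to 13.9 times. For the 20-base miR-148a probe the corresponding ranges were 35.7 to 40.4 and 44.0 to 46.8 against the 16-base probe, and 20.3 to 23.1 and 24.7 to 25.7 against the 17-base probe. Of the 4 pairs of a miR-148b probe with a miR-152 probe, only that of the brighter probes did not overlap, with a ratio of miR-148b to miR-152 of 0.637 to 0.696 on CCL4 arrays and 0.705 to 0.729 on control arrays. The brighter miR-148b probe against the 16-base miR-152 probe gave 1.05 to 1.26 and 1.25 to 1.29, which overlapped, as did both pairs with the dim miR-148b probe.

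**Figure D4:**
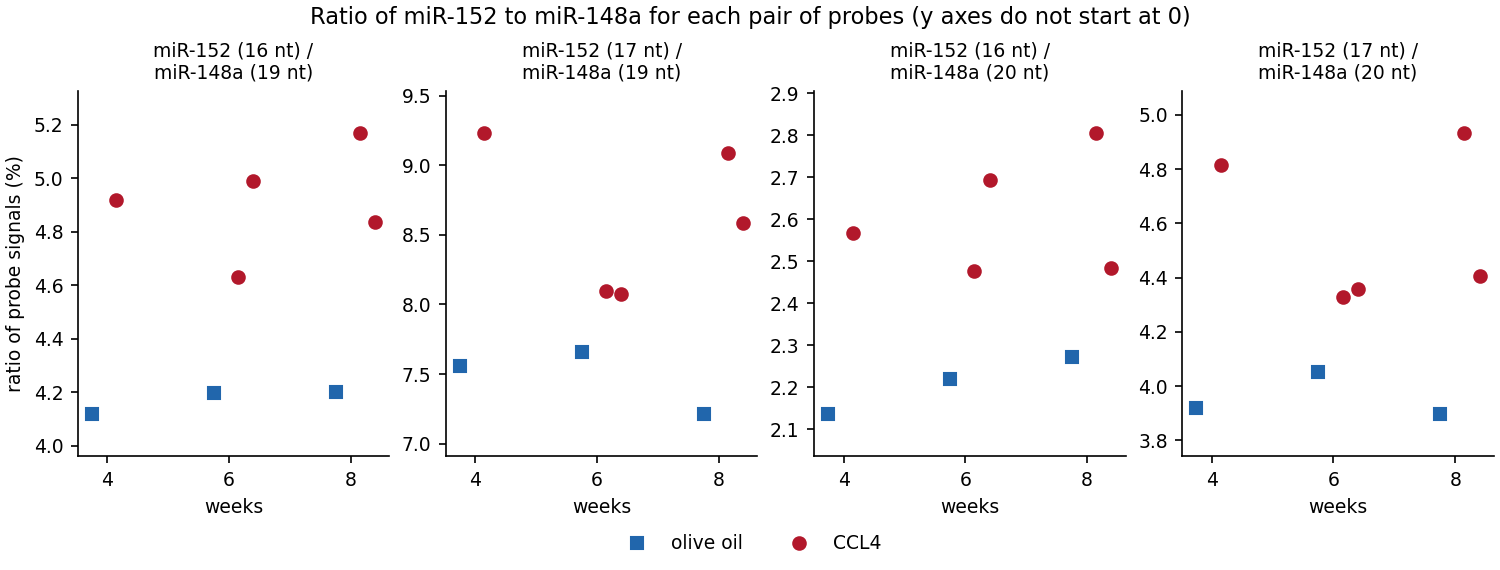
Ratio of each miR-152 probe to each miR-148a probe on the same array, in percent, against weeks (axes do not start at 0, nt is the number of annotated bases). In each of the 4 panels the 5 CCL4 arrays lie above the 3 control arrays.

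The partner strand of the miR-148a hairpin, mmu-miR-148a* on the array, is shown with its own seed in capitals because it was the only partner strand of the family measured.
mmu-miR-148a*: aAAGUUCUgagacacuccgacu
It was called detected on 0 of 8 arrays, and its total signal after background subtraction was -4.08 to -0.853, so it gives no fold change.

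The miRNAs whose pattern was most like that of each member were found by the SD, over the 8 arrays, of the log2 ratio to it, among 132 miRNAs. Nearest to miR-148a were let-7a (SD 0.0585), miR-194 (0.0651) and miR-103 (0.0654), while miR-148b stood at rank 16 (0.104) and miR-152 at rank 29 (0.125). Nearest to miR-148b were let-7d (0.0401), miR-151-5p (0.0608) and miR-103 (0.0698), with miR-152 at rank 9 (0.0948). Nearest to miR-152 were miR-26a (0.0650), miR-30e (0.0705) and let-7d (0.0785), with miR-148b at rank 5 and miR-148a at rank 18. The median SD was 0.287, 0.254 and 0.259 for miR-148a, miR-148b and miR-152. No member was thus nearest to another member. Of these 7 other miRNAs, 6 had an entry in the RefSeq table, and 0 of them carried the family seed.

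Other miRNAs known to share targets with the family were set beside it. The miR-29 family is also known for repressing DNA methyltransferases, and in scaled signal all 3 of its members were lower in CCL4 mice. The log2 fold changes were -0.68 for miR-29a, -0.60 for miR-29b and -0.89 for miR-29c, with adjusted p of 0.0135, 0.0209 and 0.0135 by limma. Among all tested miRNAs 35.3% were lower. Without scaling the miR-29 values were -0.0098, 0.065 and -0.22 and none passed. The median of these 3 was -0.68 and that of the miR-148 family -0.50, against -0.32 over all miRNAs tested.

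Some miRNAs are known, like miR-148a, for acting on cholesterol and lipid genes. They were listed under 12 names, with more than 1 form of the name for miR-128 and miR-301. Of these names 9 were on the array and 6 were tested. In scaled signal 1 was lower, miR-122, the most liver-specific miRNA (log2 fold change -0.78, adjusted p 0.0118 by limma), and 1 was higher, miR-301a (0.54, adjusted p 0.0288). The others changed by 0.16 for miR-33, a repressor of ABCA1, 0.21 for miR-27a, -0.36 for miR-27b and -0.42 for miR-144, and did not pass. The median of the 6 was -0.10. Without scaling miR-122 was at -0.11 with an adjusted p of 0.760 by limma, and miR-27b and miR-144 did not pass either. Higher without scaling were miR-301a (1.21), miR-33 (0.83) and miR-27a (0.88), with adjusted p of 0.000571, 0.00858 and 0.0151 by limma. Among all tested miRNAs 25.6% were higher in that comparison.

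Markers of the liver's cell types moved beside the family, and in whole-liver RNA fewer cells of a type and less RNA per cell cannot be told apart. Of 4 hepatocyte miRNAs, miR-122, miR-192 and miR-194 were lower in scaled signal (log2 fold changes -0.78, -0.66 and -0.60) and miR-802 was higher (0.68). Without scaling the first 3 were at -0.11, 0.010 and 0.067 and did not pass. The summed scaled signal of the 4 was 2331 to 4125 on CCL4 arrays and 5263 to 5884 on control arrays. Most of this sum was miR-122, with a mean log2 scaled signal of 11.5 in CCL4 and 12.3 in control mice. For miR-802 that mean was 1.94 and 1.22, so its rise does not show in the sum. Of 6 stellate cell or fibroblast miRNAs, 5 were tested and 4 were higher, with summed scaled signals of 30.6 to 50.3 and 22.4 to 29.4, and miR-145 was not detected on any array. Among all 133 miRNAs 35.3% were lower and 13.5% higher in scaled signal. Without scaling miR-143, which did not pass in scaled signal, was higher too (1.01, adjusted p 0.00583 by limma), where 25.6% of all tested miRNAs were. The part of these lists in the change of miR-148a and in its ratio to miR-152 was not tested.

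The summed scaled signals of the leukocyte, erythroid and biliary lists overlapped between the groups, and those of the endothelial list did not. Of 5 leukocyte miRNAs 3 were tested and none passed, with summed scaled signals of 44.3 to 139 in CCL4 and 58.5 to 95.6 in control mice, and miR-150 was not detected. The erythroid list (3 of 3 tested, none passed) summed to 378 to 961 and 537 to 1225, and the biliary list to 4.75 to 7.34 and 4.64 to 4.91, with miR-200c, miR-141 and miR-429 not detected and 1 of 2 tested, miR-200b, higher. The 2 endothelial miRNAs did not pass, but their summed scaled signal, 136 to 205 in CCL4 mice, lay below that of the control mice, 213 to 225. Most of that sum was miR-126-3p. Of the 133 single miRNAs, 52.6% likewise had groups that did not overlap. The log2 fold changes of miR-126-3p and miR-126-5p were -0.40 and -0.28, against a median of -0.32 over all tested. Without scaling they were 0.27 and 0.39 and did not pass. In the leukocyte and biliary lists miR-223 (0.92), miR-200a (0.92) and miR-200b (1.12) were higher without scaling. Their adjusted p were 0.0253, 0.00617 and 0.00113 by limma, where 25.6% of all tested miRNAs were higher. The other tested leukocyte miRNAs, miR-142-3p and miR-142-5p, did not pass. Of 4 pancreatic miRNAs none was detected. The part of these lists in the result was not tested.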

How the data were processed

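Mouse liver RNA had been run on 8 Agilent miRNA arrays with 1 dye. The deposited intensity values are background-subtracted totals over the probes of a miRNA, not scaled between arrays. Per the file headers, Feature Extraction 10.5.1.1 produced them from a G2505C scanner, whereas the methods name another software version and scanner. The log2 table deposited beside them holds these signals floored at 1 and served as an alternative.

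As in the study's methods, signals were divided by a 75th percentile, here that of the 567 mouse miRNAs on each array. Values under 0.01 were then raised to 0.01, and log2 was taken. A miRNA was tested when detected on at least 3 of 8 arrays, which left 133. Fits used R 4.3.3 with limma 3.58.1, and tables were read with version 1.17.8 of the data.table package. The model was fitted with week as a factor (4 residual degrees of freedom), with a mean per group (2) for single weeks, the interaction and 8 against 6 weeks, and on log2 ratios to a member for pairs. In the fit with a mean per group, limma used the same spread for every tested miRNA. Adjusted p is by Benjamini-Hochberg over everything tested in a comparison, with a threshold of 0.05. The scripts were tested on simulated data. The number of arrays limits the precision.

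The members, lists and tests were chosen with earlier results of these data known. The miRNAs named are the members, their partner strands on the array, the 3 nearest to each member, and members of the lists. Alternatives covered scaling, floor, background correction (normexp, offset 50), the deposited table, the detection filter, an intensity trend, the brightest probe, no week term, the methods' t-test, the replicate block and leaving out each array. Slide and scan were not used as blocks, since there was 1 of each. The human biopsies, qPCR and cell experiments were not analysed here.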

Additional observations from a re-analysis of the deposited data

How the results depend on the processing

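Under 17 alternatives to the comparison over all weeks, beside leaving out arrays, miR-148a ranged from -0.72 to 0.087 on the log2 scale, miR-148b from -0.61 to 0.17 and miR-152 from -0.50 to 0.31 (adjusted p from 0.00252, 0.00317 and 0.0179 up to 1). With a percentile of only those miRNAs that every array detected, miR-148a and miR-148b fell to -0.38 and -0.30 and did not pass, 10 miRNAs were lower, miR-148b passed at 4 weeks (-0.52) and miR-152 turned to 0.054 at 6 weeks. With the median as scale miR-152 passed over all weeks (-0.36), as did miR-148b at 4 weeks (-0.62), 6 weeks (-0.59) and 8 weeks (-0.33), and miR-148a (-0.52) and miR-152 (-0.38) at 6 weeks. Of the 133 miRNAs, 20 were then higher and 69 lower over all weeks, and 77, 75 and 40 were called at 4, 6 and 8 weeks. With quantile normalization miR-148a did not pass over all weeks (-0.064) or at 4 weeks (-0.12), nor miR-152 at 4 weeks (-0.55). There miR-148b passed at 4 weeks (-1.01), 6 weeks (-0.53) and 8 weeks (-0.33), where 48, 13 and 9 miRNAs were called. It also passed in the interaction (adjusted p 0.0282 by limma), where 13 were called. Under this normalization miR-152 was 0.068 at 8 weeks, miR-148a was -0.083 from 6 to 8 weeks of CCL4, and 18 miRNAs were lower over all weeks. Without scaling the values over all weeks were 0.087, 0.17 and 0.31 for miR-148a, miR-148b and miR-152, with 34 miRNAs higher and 0 lower. They were -0.14, 0.15 and 0.14 at 4 weeks, 0.034 and 0.17 for miR-148a and miR-152 at 6 weeks, and 0.31, 0.38 and 0.57 at 8 weeks. With normexp they were -0.0018, -0.0039 and 0.091 over all weeks (10 higher, 0 lower). At 4 weeks normexp gave -0.22 for miR-148a and 0.024 for miR-152. At 6 weeks it gave 0.042 for miR-152, and at 8 weeks 0.18, 0.044 and 0.19. The ratios under normexp changed by -0.0021 (miR-148b over miR-148a), 0.092 (miR-152 over miR-148a) and 0.094 (miR-152 over miR-148b). With a floor at the lowest detected signal miR-148b passed at 4 weeks (-0.74). With no filter on detection, which tests all 567, miR-148a (-0.58) and miR-148b (-0.50) did not pass over all weeks, nor miR-148a (-1.04) and miR-152 (-0.76) at 4 weeks, with 5 miRNAs higher and 0 lower. Among miRNAs detected on all arrays miR-148b passed at 4 weeks (-0.74). With the brightest probe only, miR-152 passed over all weeks (-0.50), with 11 miRNAs higher and 73 lower. So did miR-148b at 4 weeks (-0.86), and miR-148a (-0.77), miR-148b (-0.75) and miR-152 (-0.67) at 6 weeks. At these weeks 64 and 71 miRNAs were called. Without the week term miR-148a (-0.54) and miR-148b (-0.46) did not pass, with 11 higher and 16 lower. By the methods' t-test on the same values, miR-148a (-0.54) and miR-148b (-0.46) did not pass after Benjamini-Hochberg (10 higher, 23 lower) or Bonferroni (0 higher, 1 lower). The exact permutation p of miR-152 over miR-148a was 0.111 within weeks. The causes were not tested.

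Leaving out each array, the comparison over all weeks gave -0.76 to -0.41 for miR-148a, -0.67 to -0.41 for miR-148b and -0.56 to -0.22 for miR-152, with 8 to 14 miRNAs higher and 5 to 60 lower. The values were -0.72 to -0.36, -0.74 to -0.48 and -0.61 to -0.20 at 6 weeks, and -0.39 to -0.17, -0.23 to -0.20 and -0.070 to 0.018 at 8 weeks. At 4 weeks they stayed at -1.04, -0.74 and -0.76 with adjusted p up to 0.0459, 0.142 and 0.139. From 6 to 8 weeks of CCL4 they were -0.023 to 0.34, 0.10 to 0.36 and 0.04 to 0.44, and the adjusted p of the interaction was 0.100 to 0.997, 0.234 to 0.997 and 0.101 to 0.997. The ratios changed by 0.00041 to 0.17 (miR-148b over miR-148a), 0.19 to 0.27 (miR-152 over miR-148a) and 0.10 to 0.19 (miR-152 over miR-148b). An array that is alone in its group leaves no value for that week. Deviations of same-numbered CCL4 arrays of 6 and 8 weeks correlated at r = 0.05 over 133 miRNAs, which are not independent. This single comparison of arrays cannot tell whether the replicate numbers mark a pairing. With the replicate number as a block the values over all weeks were -0.72, -0.57 and -0.48 (adjusted p 0.0150, 0.0246 and 0.0522 by limma), with 12 higher and 54 lower, and no call of a member changed.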
